A study of Mus musculus with 4 samples.

Results

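The genes examined here were the gene features of the count matrices whose names start with Cfap, Dnah, Dnaaf, Rsph or Drc directly followed by a digit. The rule found 65 of the 32287 gene features: 33 Cfap, 16 Dnah, 5 Dnaaf, 8 Rsph and 3 Drc genes. It used names alone and no measured value. One of the 65, Dnah2os, is an antisense transcript of Dnah2 and not a coding gene.

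The study delivered a pooled enhancer AAV library intravenously to Cx30-tdTomato mice, in which tamoxifen-induced Cre expressed from the Cx30 (Gjb6) locus turns on tdTomato, mainly in astrocytes. The injured group received a mid-thoracic spinal cord contusion and was sampled 3 days later, and the uninjured group received the virus but no injury. The tdTomato+ cells of 5 mm cord segments were sorted and profiled with a droplet-based 3′ assay, 1 gene expression library per condition, each from 1-2 pooled animals per sex, whose age the labels do not give. With 1 library per group there was no replicate: every interval below is a 95% interval that covers counting error only, no p-value was computed, and a difference between conditions cannot be told apart from a difference between these 2 libraries.

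Motile cilia are built on the axoneme, a ring of doublet microtubules around a central pair. Outer and inner dynein arms slide the doublets, radial spokes and the nexin-dynein regulatory complex pass signals from the central apparatus to the arms, and cytoplasmic assembly factors preassemble the arms. In the spinal cord, motile cilia are a hallmark of the ependymal cells that line the central canal and move cerebrospinal fluid. Astrocytes carry a primary cilium, which lacks dynein arms, radial spokes and a central pair.

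After removal of 40 injured barcodes with 50000 or more unique molecular identifiers (UMIs), 879 injured cells with a median of 6816 gene UMIs and 4159 uninjured cells with a median of 3343 remained, and 7 cell barcodes occurred in both libraries. The cells fell into 14 clusters. The 65 genes and further cilia genes were left out of the clustering, so that the clusters were not formed from them, and 12 clusters were named from markers. The ependymal-like class had 143 injured cells (median 10521 UMIs) and 31 uninjured cells (median 4362). The astrocyte-like class had 382 injured cells (median 3817) and 2947 uninjured cells (median 3332). The summed level of the 8 ependymal markers was 6975 and 11236 UMIs per 1000000 gene UMIs (CPM) in injured and uninjured ependymal-like cells, against 545 and 111 CPM in astrocyte-like cells. Foxj1, the master regulator of motile cilia, is one of those markers, so the naming was not independent of the cilia programme. The reverse held for the 8 astrocyte markers, with 11734 and 13523 CPM in astrocyte-like cells and 1270 and 1874 CPM in ependymal-like cells. By sex-linked transcripts the uninjured library held 2770 male and 2 female cells, and the injured library 315 male and 250 female cells, although both sexes were pooled per condition according to the design. The share of ependymal-like cells depends on the sort and was not compared between conditions.

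The first comparison asked where these genes are read in the sorted cells, with ependymal-like against astrocyte-like cells. The 65 genes together had 10943 CPM in ependymal-like cells after injury and 16441 CPM without it, from 18520 and 2606 UMIs. In astrocyte-like cells they had 482 and 416 CPM, from 1038 and 4542 UMIs. The ependymal-like level was 22.7-fold higher after injury (21.3 to 24.2) and 39.6-fold higher without it (37.7 to 41.5). Microglia or macrophage-like cells, which carry no motile cilia, had 164 and 214 CPM, fibroblast-like cells 367 and 381 CPM, endothelial-like cells 254 and 311 CPM and oligodendrocyte progenitor (OPC)-like cells 508 and 685 CPM. Every class other than the ependymal-like cells, the unnamed clusters included, lay at or below 685 CPM.

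Counted gene by gene over all 65 genes, with 1 CPM added to both classes, 51 were at least 4-fold higher in ependymal-like cells after injury and 56 without injury. Over every gene feature, 4.2% and 7.43% passed the same fold. In the uninjured library 1 UMI in the small ependymal-like class already passes it for a gene unread in astrocyte-like cells. With a minimum of 20 UMIs over both classes, 9.3% of genes passed after injury and 9.95% without, and 51 of the 59 remaining members and 47 of the 52 did. The members' median log2 ratio under that minimum was 5.02 and 6.67, beside 0.00 and -0.05 for all genes, although genes read only in the ependymal-like cells pass the minimum through that class. The other genes of the pathway went the same way: of 62 measured motile cilia genes outside the 5 families, 60 passed in the injured library, as did 53 of 54 in the uninjured library. Of the 28 and 29 measured genes of the primary cilium and intraflagellar transport, 9 and 15 passed, and of 7 cytoplasmic dynein genes, 0 and 1.

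**Figure D1:**
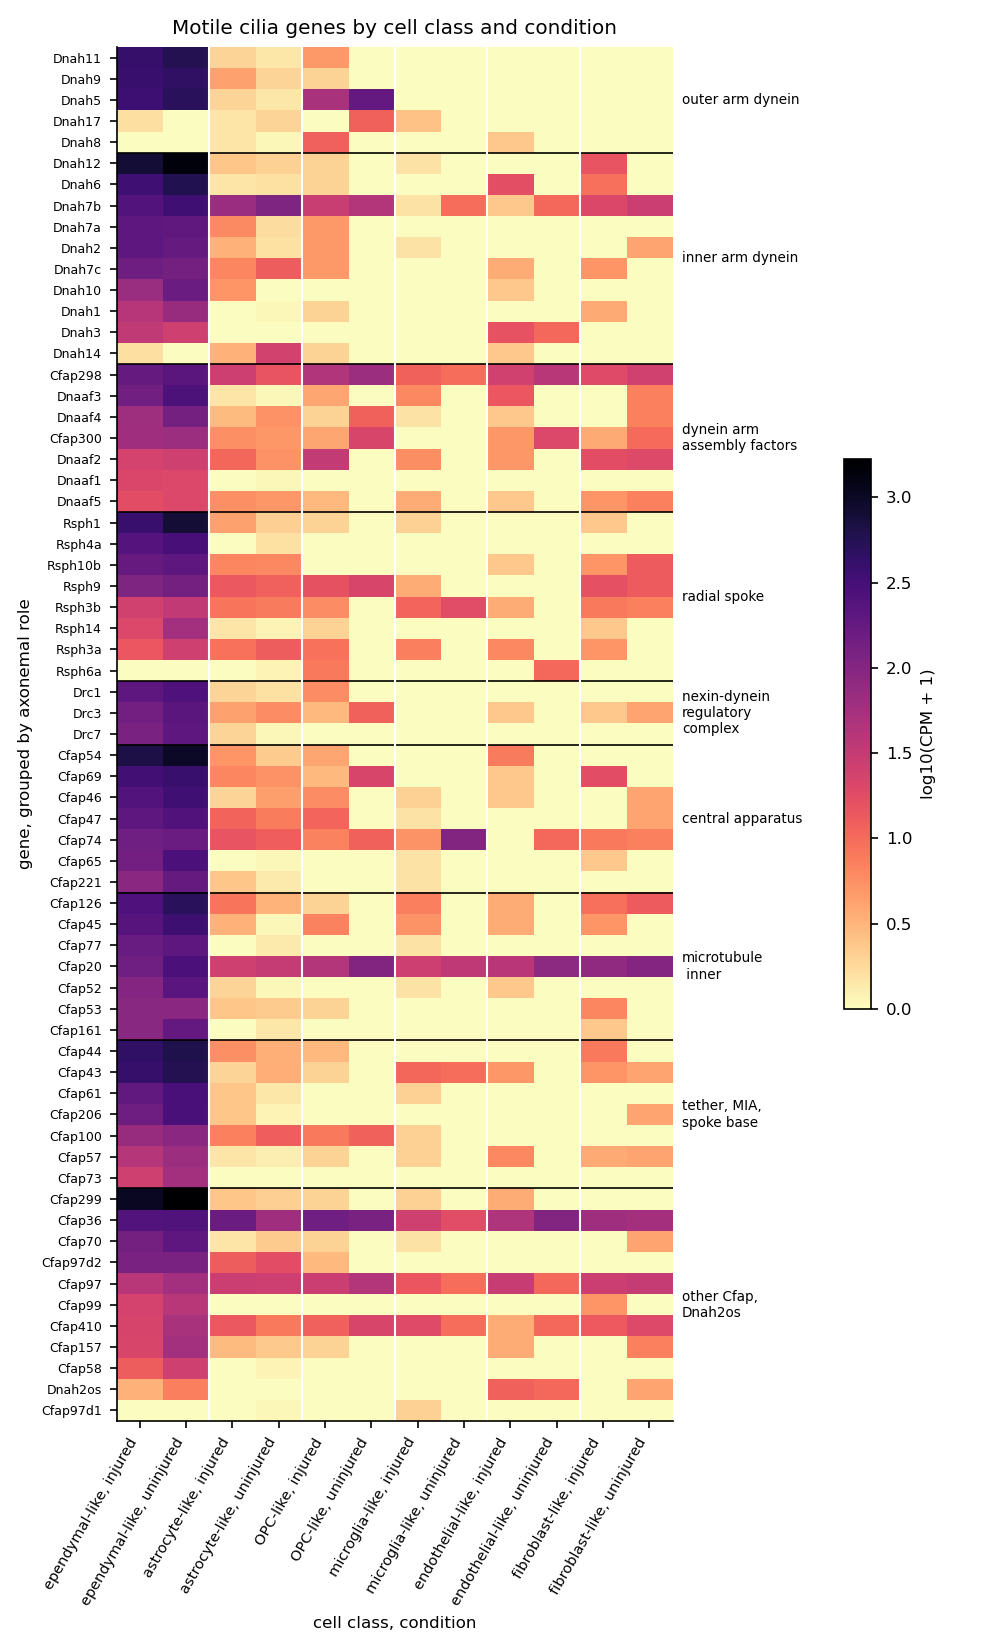
Level of each of the 65 genes (rows, grouped by axonemal role) in 6 marker-defined cell classes of the injured and uninjured libraries (columns), coloured by log10(CPM + 1), darker for higher levels. The 2 ependymal-like columns are dark for nearly all rows, whereas Cfap36, Cfap20, Cfap97, Cfap298 and Dnah7b are read in several classes.

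The outer arm dynein heavy chains are the force-generating subunits of the outer arms. Dnah5, the gamma-type heavy chain, had 350 CPM in ependymal-like cells after injury and 498 CPM without it, and 0.928 and 0.457 CPM in astrocyte-like cells. Its beta-type partners Dnah11 and Dnah9 had 414 and 388 CPM in injured and 555 and 461 CPM in uninjured ependymal-like cells. All 3 were above astrocyte-like cells by wide margins, with ratios of 377 (104 to 3120), 446 (123 to 3693) and 120 (57.7 to 298) in the injured library. The remaining outer arm genes Dnah8 and Dnah17, whose products are known from sperm flagella, had 0 and 1 UMI in injured and none in uninjured ependymal-like cells. These classes held 1692483 and 158504 gene UMIs, in each of which a count of 0 allows up to 3 UMIs, so use of Dnah8 by these cells was not detectable at this depth.

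Among the inner arm heavy chains, Dnah12, a single-headed dynein, had 793 CPM in ependymal-like cells after injury and 1426 CPM without it and 1.39 and 1.01 CPM in astrocyte-like cells. Dnah6, of the same kind, had 347 and 587 CPM against 0.464 and 0.549 CPM. Dnah2 and Dnah10, which encode the chains of the double-headed inner arm, had 196 and 66.2 CPM in injured and 177 and 158 CPM in uninjured ependymal-like cells. Dnah1 had 39.0 and 69.4 CPM. Dnah3 had 33.1 CPM in injured ependymal-like cells, but its 56 UMIs came from only 14 of 143 cells. For comparison, the 66 UMIs of Dnah1 came from 46 cells.

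The dynein arm assembly factors act in the cytoplasm. Dnaaf3 had 139 and 271 CPM in injured and uninjured ependymal-like cells and 0.464 and 0.0915 CPM in astrocyte-like cells, a ratio of 299 (53.2 to 11871) in the injured library. Dnaaf1 had 34 and 3 UMIs in ependymal-like cells and 0 and 1 in astrocyte-like cells. The further factors Dnaaf2 and Dnaaf5, also serve proteins outside the axoneme. They had 22.5 and 16.5 CPM in injured ependymal-like cells and 9.74 and 4.64 CPM in injured astrocyte-like cells, only 2.3-fold (1.32 to 4.13) and 3.57-fold (1.68 to 8.23) apart. Cfap298, another assembly factor, had 177 CPM in injured ependymal-like and 25.5 CPM in injured astrocyte-like cells. As a group the 7 assembly factors were 10.6-fold higher in injured ependymal-like cells (8.62 to 13.2), against 191-fold (112 to 360) for the 5 outer arm chains.

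Of the radial spoke genes, Rsph1 and Rsph4a, which encode spoke head proteins, had 381 and 238 CPM in injured and 795 and 303 CPM in uninjured ependymal-like cells. In astrocyte-like cells Rsph1 had 3.25 and 1.1 CPM, and Rsph4a had 0 UMIs in the injured library, so that its level was at least 171-fold higher in ependymal-like cells. Rsph9, also of the head, had 109 and 132 CPM in ependymal-like and 13 and 11 CPM in astrocyte-like cells. Rsph3a and Rsph3b, near-identical copies of a spoke stalk gene, had 22 and 41 UMIs in injured ependymal-like and 17 and 16 in injured astrocyte-like cells, ratios of 1.65 (0.836 to 3.31) and 3.26 (1.79 to 6.23). About 52.0% and 52.2% of their 60-base words occur in the other copy, so the split of counts between them is uncertain. Rsph6a, a spoke head gene of sperm, was unread in ependymal-like cells, and 7 of its UMIs in the injured OPC-like class came from 1 cell.

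The remaining axonemal groups also had higher levels in ependymal-like than in astrocyte-like cells. The 3 genes of the nexin-dynein regulatory complex, the link between neighbouring doublets, summed to 448 and 675 CPM in ependymal-like and 5.1 and 5.58 CPM in astrocyte-like cells. Of these, Drc1, which anchors the complex, had 195 and 265 CPM. The 7 central apparatus genes summed to 1787 and 2587 CPM, of which Cfap54 alone had 647 and 984 CPM. The 7 microtubule inner proteins, which line the inside of the doublets, summed to 1074 and 1836 CPM, with Cfap126 at 262 and 505 CPM and Cfap45 at 227 and 360 CPM. The same 7 genes summed to 99.8 and 110 CPM in fibroblast-like cells, where Cfap20 alone had 80.4 and 97.4 CPM. Cfap43 and Cfap44, which tether the inner arm dynein motor, had 406 and 448 CPM in injured and 562 and 612 CPM in uninjured ependymal-like cells. Cfap299, in chr5:98329304-98802047, had 1043 and 1672 CPM in ependymal-like and 1.39 and 1.1 CPM in astrocyte-like cells, ratios of 749 (256 to 3637) and 1523 (857 to 2985). All gene coordinates are from the GENCODE M21 annotation of mouse genome build GRCm38 (mm10). Dnaaf3, Rsph10b and Cfap43 overlap Tnni3, Pms2 and Itprip on the same strand, so that the counting could split reads between these pairs. UMI counts of a 3′ assay are not levels per transcript length, so levels are compared between cells for a gene and not between genes.

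Each gene's astrocyte-like level was also set as a percentage of its ependymal-like level. Genes entered through their ependymal-like counts, which favours low percentages, so these are given as a description. Over the 59 genes with at least 20 UMIs in injured ependymal-like cells, this percentage ran from 0 to 73.6 with a median of 1.15, and it was under 1 for 27 genes and over 20 for 8. Over 40 such genes of the uninjured library it ran from 0 to 32.3 with a median of 0.229, under 1 for 27 and over 20 for 2. That minimum left out, among others, Dnah14, Cfap97 and Rsph3a, which had 255, 282 and 126 UMIs in uninjured astrocyte-like cells and 0, 9 and 4 in ependymal-like cells. The 8 genes over 20% in the injured library were Cfap97, Cfap36, Rsph3a, Cfap410, Dnaaf2, Rsph3b, Dnaaf5 and Dnah7b. The 2 in the uninjured library were Dnah7b and Cfap36. The part of free RNA in the astrocyte-like counts was not tested. Of the 8, Cfap97, Cfap36, Cfap410, Dnaaf2 and Dnaaf5 belong to the 7 members known from cells without motile cilia, together with Cfap20 and Cfap298. Those 7 held 261 of the 482 CPM in injured and 145 of the 416 CPM in uninjured astrocyte-like cells. Without them the ependymal-like level was 46.6-fold (42.5 to 51.1) and 57.4-fold (54.4 to 60.6) higher.

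**Figure D2:**
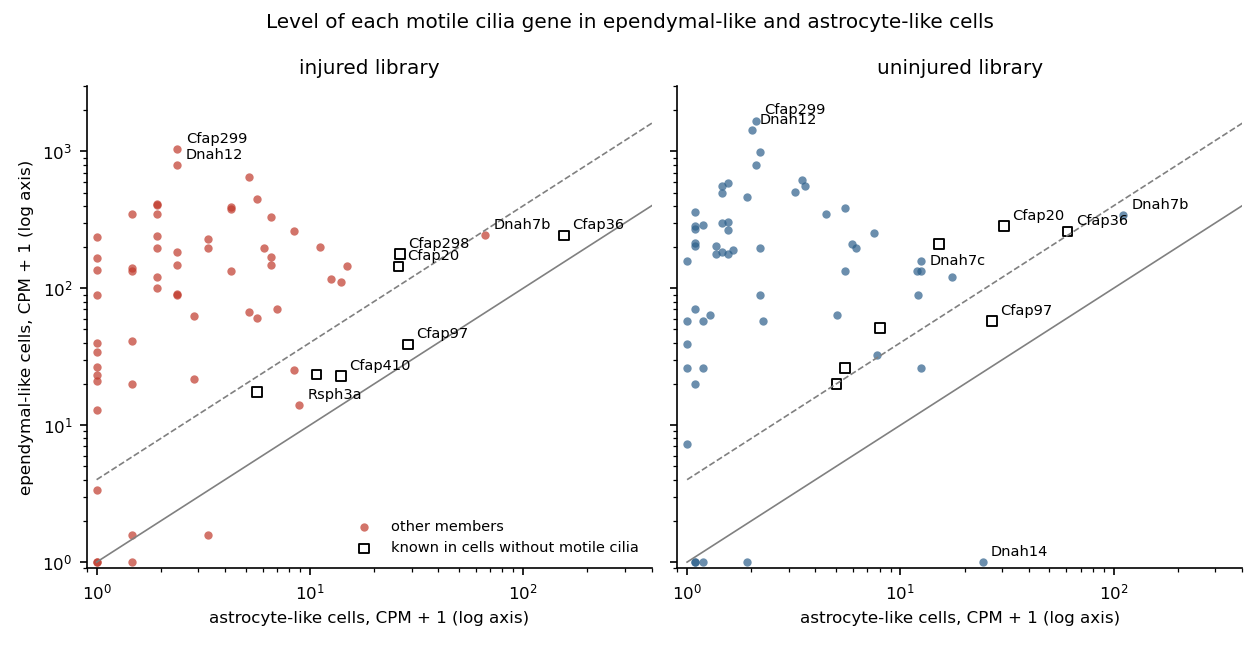
Each point is 1 gene, with its level in astrocyte-like cells on the x axis and in ependymal-like cells on the y axis (CPM + 1, log axes), for the injured (left) and uninjured (right) library. The solid line marks equal levels and the dashed line a 4-fold higher ependymal-like level, squares are the 7 members known in cells without motile cilia, and Dnah14 is the point on the floor of the right panel, with 23.3 CPM in astrocyte-like cells.

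Cfap36, whose product binds small GTPases of the ARL family, was read in every class but the 3 uninjured mural-like cells. It had 242 and 259 CPM in injured and uninjured ependymal-like cells, 155 and 59.7 CPM in astrocyte-like cells, 143 and 116 CPM in OPC-like cells and 25.4 and 17.1 CPM in microglia or macrophage-like cells. In astrocyte-like cells its injured level was 2.59-fold the uninjured level (2.27 to 2.96), whereas the ratio in ependymal-like cells was 0.937 (0.678 to 1.32). Of its 334 injured astrocyte-like UMIs, 318 lay in the cluster led by Gfap and Lcn2, so the 2.59-fold sets different mixes of clusters against each other. The clusters led by Egfem1 and Cldn10 had 47.2 and 68.5 CPM in uninjured cells. Their injured cells had 1 and 9 UMIs, with intervals of 0.455 to 100 and 25.2 to 105 CPM, which hold those levels. Cfap97 was the member with the smallest difference between the classes, with 37.8 CPM in injured ependymal-like and 27.8 CPM in injured astrocyte-like cells (ratio 1.36, 0.94 to 1.97). Cfap20, a microtubule inner protein also known from centrioles, had 143 and 284 CPM in ependymal-like and 25.1 and 29.6 CPM in astrocyte-like cells.

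Dnah7b stood apart from the other dynein heavy chains. It encodes a single-headed inner arm dynein and lies in chr1:46066315-46373546 on the forward strand. In astrocyte-like cells it had 141 UMIs in 90 of 382 injured cells and 1203 UMIs in 851 of 2947 uninjured cells, or 65.4 and 110 CPM. Ependymal-like cells had 243 and 341 CPM, only 3.72-fold (3.07 to 4.54) and 3.1-fold (2.31 to 4.07) more. Microglia or macrophage-like cells had 1 UMI in each library. The uninjured astrocyte-like level was not carried by 1 cluster, since the 4 clusters with at least 640 uninjured cells had 79.4, 99.1, 131 and 155 CPM. The injured level was 0.594 of the uninjured one (0.496 to 0.708). The injured cells were mostly in another cluster, led by Gfap and Lcn2, where 316 cells had 55.4 CPM (45.3 to 67.1). The ratio thus sets different mixes of clusters against each other. In the clusters with 155 and 79.4 CPM in uninjured cells, 27 and 29 injured cells had 180 CPM (86.2 to 330) and 116 CPM (70.0 to 182). These rest on only 10 and 19 UMIs.

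Dnah7b has close copies, Dnah7a and Dnah7c, on the same chromosome, and 25.9% of its 60-base words occur in them, as do 33.2% and 40.9% of theirs. Counts could therefore be split or lost between the 3. Their proportions nevertheless differed between classes. Ependymal-like cells had 333 UMIs of Dnah7a, 412 of Dnah7b and 247 of Dnah7c in the injured library, and 30, 54 and 21 in the uninjured library. Uninjured astrocyte-like cells had 7, 1203 and 126. Dnah7a was thus 296-fold higher in ependymal-like cells (127 to 797) where Dnah7b was 3.1-fold higher.

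With 1 CPM added to both classes, Dnah14 was the 1 member at least 4-fold lower in ependymal-like than in astrocyte-like cells of the uninjured library. It was singled out after its values were seen. The gene, a dynein heavy chain listed here with the inner arms, in chr1:181576559-181815774 on the forward strand, overlaps Lbr on the opposite strand. It had 255 UMIs in 216 of 2947 uninjured astrocyte-like cells (23.3 CPM) and 88 UMIs in 74 of 1012 uninjured cells of the unnamed clusters, in which astrocyte markers were joined by neuronal genes. Uninjured microglia or macrophage-like, endothelial-like, OPC-like and fibroblast-like cells had 0. In the microglia or macrophage-like and endothelial-like cells the interval of a 0 reaches 31.6 and 34.8 CPM, above the astrocyte-like level. OPC-like cells had fewer gene UMIs still (94822), so these 3 classes cannot show a lower level. In fibroblast-like cells the interval reaches 11.2 CPM. Uninjured ependymal-like cells also had 0, but from a smaller total. With that 0 bounded at 3 UMIs the astrocyte-like level was 1.23-fold higher. The counting interval of the ependymal-like over astrocyte-like ratio ran from 0 to 1.005 and so held equal levels. In injured astrocyte-like cells Dnah14 had 5 UMIs (2.32 CPM), 0.0994 of the uninjured level (0.032 to 0.235). All 5 lay in the cluster led by Gfap and Lcn2, so this ratio too sets different mixes of clusters against each other. In the clusters led by Egfem1 and Cldn10, uninjured cells had 35.9 and 17.0 CPM. The 0 of their injured cells reaches 66.3 and 22.6 CPM, above those levels, so no drop can be told there. Injured ependymal-like cells had 1 UMI of Dnah14.

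Dnah5 was the outer arm chain read in a further class. The OPC-like cells had 51 UMIs in 24 of 46 injured cells and 17 UMIs in 9 of 14 uninjured cells, or 50.1 and 179 CPM. Microglia or macrophage-like, endothelial-like and fibroblast-like cells had 0 UMIs of it in both libraries, and Dnah9 and Dnah11, its partners in the arm, had 1 and 4 UMIs in injured and 0 in uninjured OPC-like cells. Summed ependymal markers in OPC-like cells were 662 and 390 CPM, with Tmem212 and Prom1 at 0 after injury and 6 of the 8 markers, Foxj1 included, at 0 without it, and their part in the Dnah5 counts was not tested. Smaller patterns of the same kind, singled out after their values were seen, were 11 UMIs of Dnah3, 12 of Dnah6 and 8 of Dnah2os in 9, 9 and 8 of 70 injured endothelial-like cells, 18 UMIs of Cfap43 in 16 of 126 injured microglia or macrophage-like cells, and 11 UMIs of Dnah8 in 8 injured OPC-like cells. Whether the counting used strand is not stated by the sources at hand, so Dnah2os cannot be told apart from Dnah2.

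**Figure D3:**
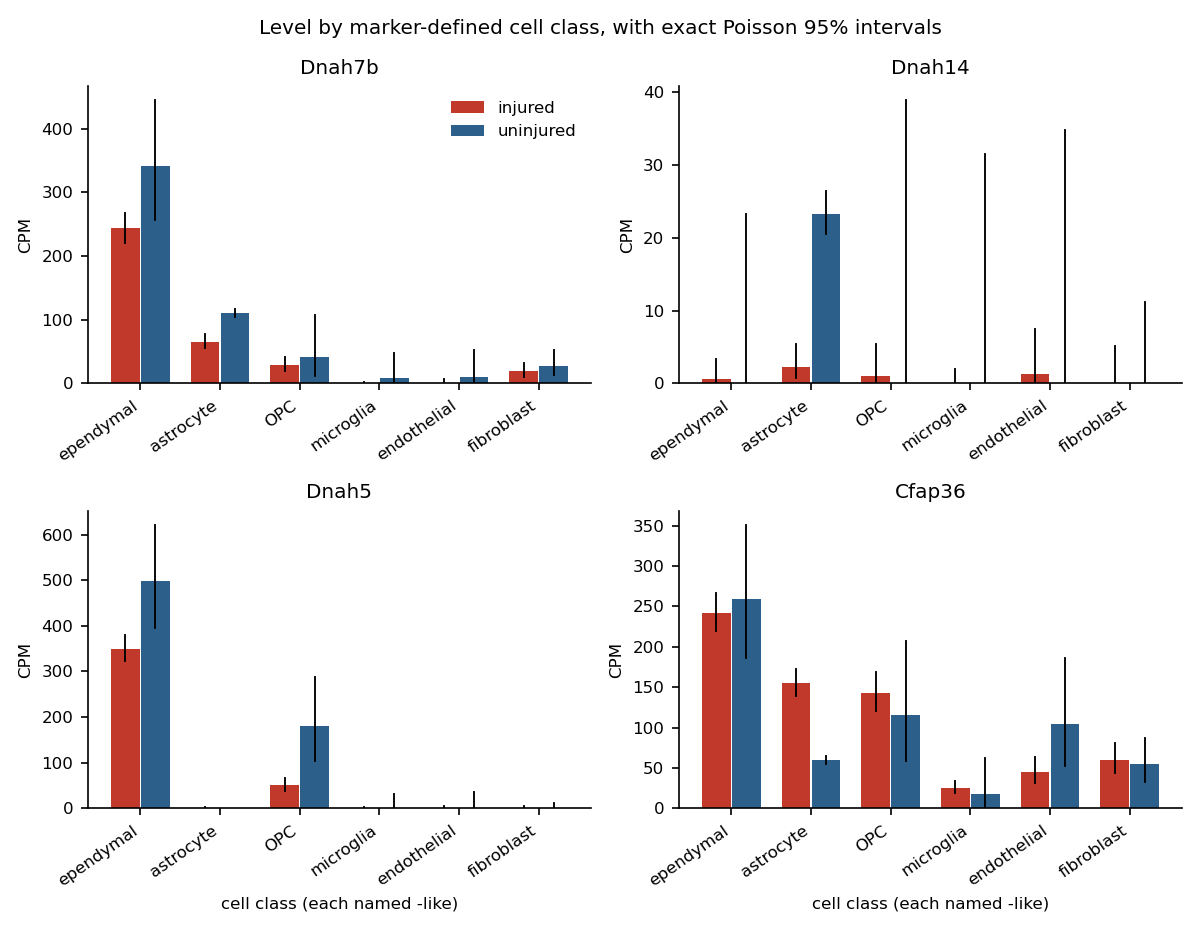
CPM of Dnah7b, Dnah14, Dnah5 and Cfap36 in 6 cell classes (bars from 0, injured and uninjured libraries), with exact Poisson 95% intervals as vertical lines. Dnah7b and Cfap36 have bars in astrocyte-like cells, and Dnah5 has bars in ependymal-like and OPC-like cells. Of these 6 classes Dnah14 reaches 23.3 CPM only in uninjured astrocyte-like cells. Its intervals at 0 UMIs in uninjured microglia or macrophage-like and endothelial-like cells extend above that level.

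Single cells showed the same separation. A median of 36 of the 65 genes had a UMI in an injured ependymal-like cell (range 6 to 53) and of 32 in an uninjured one (19 to 49). Astrocyte-like cells had a median of 1 in both libraries, with a maximum of 22 and 21. After thinning each cell to 1000 gene UMIs, the median was 9 and 12 genes per ependymal-like cell and 0 per astrocyte-like cell. The share of thinned cells with a UMI of any member was 99.3% (96.1 to 100) and 100% (88.8 to 100) of 142 and 31 ependymal-like cells. It was 33.3% (28.4 to 38.6) of 348 injured and 34.3% (32.6 to 36.1) of 2881 uninjured astrocyte-like cells. Microglia or macrophage-like cells, with median depths of 14070.5 and 3169 UMIs before thinning, had 14.9% of 121 (9.06 to 22.5) and 25.0% of 28 (10.7 to 44.9). Endothelial-like cells had 23.9% of 67 and 23.1% of 26. Higher point values came from OPC-like cells, 39.1% of 46 and 57.1% of 14, and fibroblast-like cells, 42.5% of 40 and 39.8% of 88. Thinning left out 1 and 0 ependymal-like, 34 and 66 astrocyte-like and 5 and 3 microglia or macrophage-like cells. It also left out 3 and 0 endothelial-like and 3 and 7 fibroblast-like cells. Without thinning, 73.3% and 69.5% of astrocyte-like cells had a UMI. Without the 7 members known in cells without motile cilia, the thinned share was 17% and 23.7% of astrocyte-like cells and 7.44% and 17.9% of microglia or macrophage-like cells. OPC-like cells then had 19.6% and 21.4%, fibroblast-like cells 25.0% and 12.5%, and endothelial-like cells 5.97% and 0%.

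The second comparison set the injured against the uninjured ependymal-like cells. The 65 genes together were at 0.666 of the uninjured level (0.639 to 0.694). All 9 groups of genes by role had a ratio below 1, from 0.585 (0.517 to 0.664) for the microtubule inner proteins to 0.761 (0.665 to 0.874) for the outer arm chains. Of the 59 genes with at least 20 UMIs over both libraries, 53 had a log2 ratio below 0 (1 CPM added), with a median of -0.55, beside 54.1% and -0.07 for all genes. At least 2-fold lower were 11 of the 59, where 9.57% of all genes were. None was at least 2-fold higher, where 12.7% of all genes were. Without the minimum, 12 of the 65 were at least 2-fold lower and 0 higher. The share over every gene feature is not given for this setting, so these counts are a description only.

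Rsph1, of the spoke head, had 381 CPM after injury and 795 CPM without it, a ratio of 0.479 (0.395 to 0.584) that rests on 644 and 126 UMIs. Dnah12 had a ratio of 0.556 (0.483 to 0.643), Cfap299 of 0.624 (0.548 to 0.712), Cfap126 of 0.519 (0.408 to 0.667) and Cfap54 of 0.657 (0.555 to 0.782). The intervals of these 5 genes lay below 1. The 5 smallest ratios were mostly those of sparsely counted genes, with 0.333 (0.155 to 0.793) for the spoke protein Rsph14 from 32 and 9 UMIs and 0.364 (0.172 to 0.862) for Cfap157, a basal body-associated protein. Dnah10 followed with 0.42 (0.27 to 0.676), Cfap410 with 0.433 (0.199 to 1.08) and Cfap73 with 0.447 (0.215 to 1.04).

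The 5 highest ratios were those of Dnah3 (1.31, 0.484 to 4.98), Dnah2 (1.11, 0.752 to 1.69), Dnah7c (1.1, 0.705 to 1.81), Dnaaf1 (1.06, 0.334 to 5.4) and Dnah7a (1.04, 0.715 to 1.57). All 5 intervals held 1. The outer arm chains were close to each other, with 0.702 (0.554 to 0.899) for Dnah5, 0.746 (0.597 to 0.942) for Dnah11 and 0.843 (0.661 to 1.09) for Dnah9. Within the inner arms the ratios ran from 0.42 for Dnah10 to 1.31 for Dnah3, and the chain with the most UMIs, Dnah12, had an interval wholly below those of Dnah2 and Dnah7a. Among cells within the uninjured depth range, taken up below, these intervals overlapped narrowly. There Dnah12 had 0.688 (0.586 to 0.81), Dnah2 1.23 (0.804 to 1.94) and Dnah7a 1.21 (0.804 to 1.88).

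**Figure D4:**
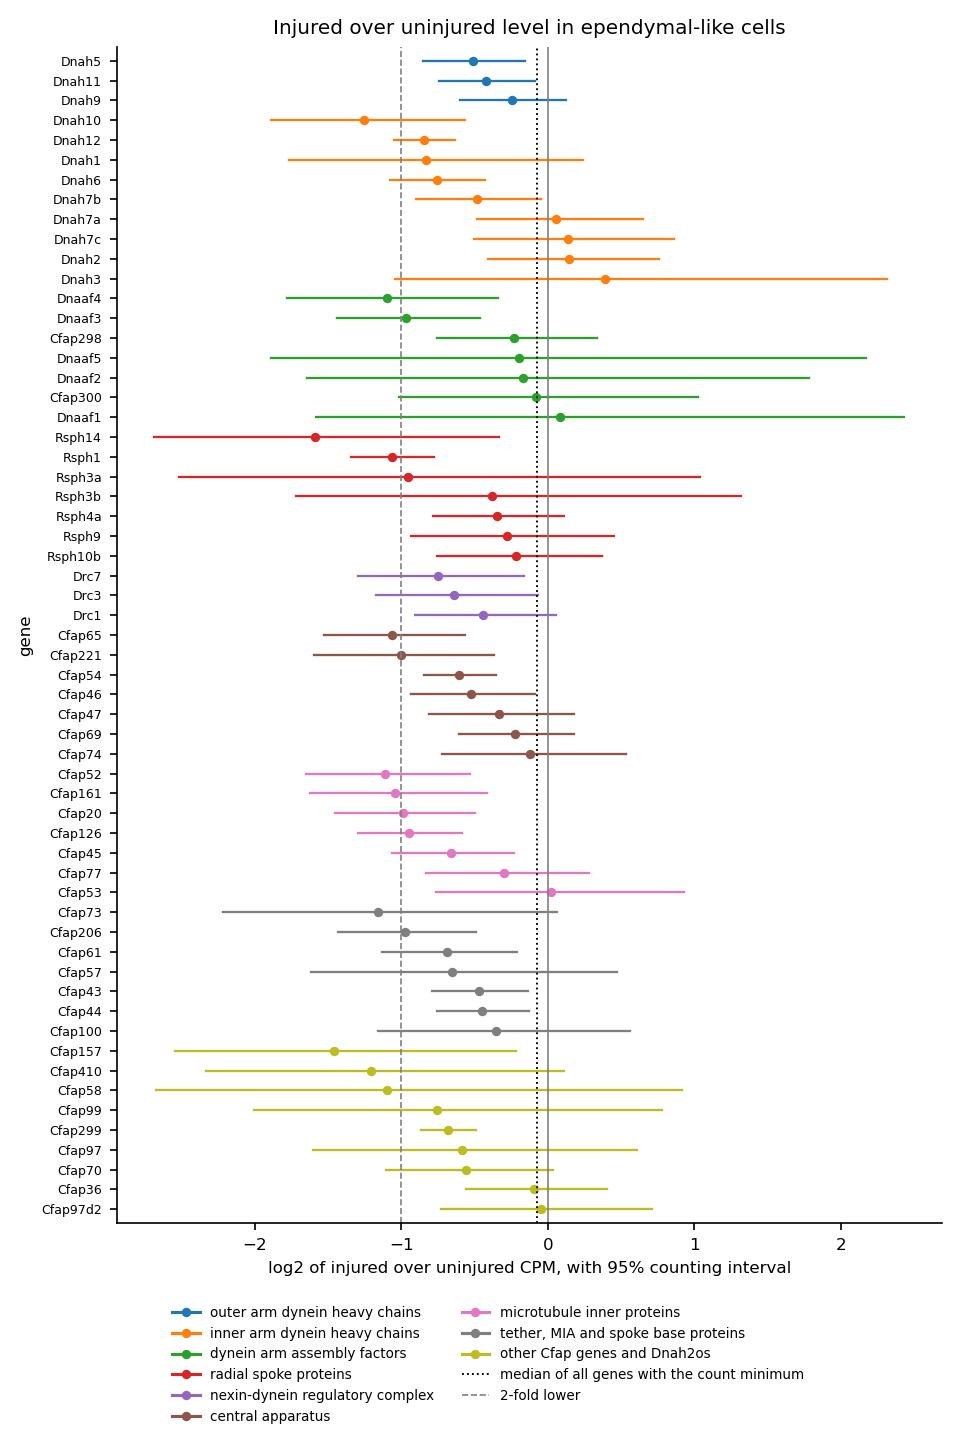
Log2 ratio of the injured over the uninjured level in ependymal-like cells for the 59 genes with at least 20 UMIs (points), with 95% counting intervals (lines), coloured by axonemal role. Most points lie left of 0 and of the dotted median of all genes (-0.07), and 11 lie at or left of the dashed line of a 2-fold lower level once 1 CPM is added.

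Depth moved with this comparison. Injured ependymal-like cells had a median of 10521 UMIs and uninjured ones of 4362, and within the injured library the members' level was 14551 CPM in the 19 cells of up to 5000 UMIs, 13077 CPM in the 46 cells of 5000 to 10000 and 10174 CPM in the 78 deeper cells. Uninjured cells had 15546, 18634 and 12021 CPM in the same ranges, the last from 2 cells. Restricted to the 64 injured cells within the depth range of the 31 uninjured cells (2695 to 10636 UMIs), the ratio was 0.805 (0.769 to 0.843). There 37 of 50 genes with at least 20 UMIs were below 0, with a median of -0.29, beside 55.8% and -0.09 for all genes, and none was at least 2-fold lower or higher, where 7.73% and 6.96% of all genes were. Even so the medians differed, 7758 against 4362 UMIs. The radial spoke genes had a median of 0.00 in this range, while the microtubule inner proteins had -0.51. Between male cells of both libraries the ratio was 0.676 (0.644 to 0.709), and the 59 female injured ependymal-like cells had 9982 CPM, against 11529 CPM in the 64 male ones.

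Part of the injured cells lay below the whole uninjured range. The lowest uninjured ependymal-like cell had 70.9 member UMIs per 10000 gene UMIs, and 39 of the 143 injured cells were below it, 5 of them within 10 of that value. These 39 are a range of the level and not a cell type. They had a median of 35.8 member UMIs per 10000, against 145 in the other 104 injured cells and 155 in the 31 uninjured cells. Since they were chosen by the members' level, their other genes are given as a description. Their median depth was 14697 UMIs, against 9821 in the other injured cells. The deepest uninjured cell had 10636 UMIs, so most of the 39 had no uninjured cell of like depth. The cut itself came from 1 uninjured cell with 10161 UMIs, 1 of only 2 over 10000. The other motile cilia genes had a median of 49.0 per 10000 in them, against 159 and 178 in the other injured and the uninjured cells, the ependymal markers 37.3, against 76.8 and 108, and Foxj1 1.07, against 2.78 and 2.4. Vim, an intermediate filament gene of ependymal and reactive cells, had 83.0, against 36.2 and 19.7, and Gfap, the filament of reactive astrocytes, was read in 33 of the 39, in 63 of the 104 and in 0 of the 31 cells. The 8 astrocyte markers, in turn, had 12.9, against 8.01 and 10.7 per 10000, while microglia or macrophage markers were read in 20 of 39, 42 of 104 and 4 of 31 cells and fibroblast markers in 21, 27 and 2. The part of mixed droplets in these cells was not tested.

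**Figure D5:**
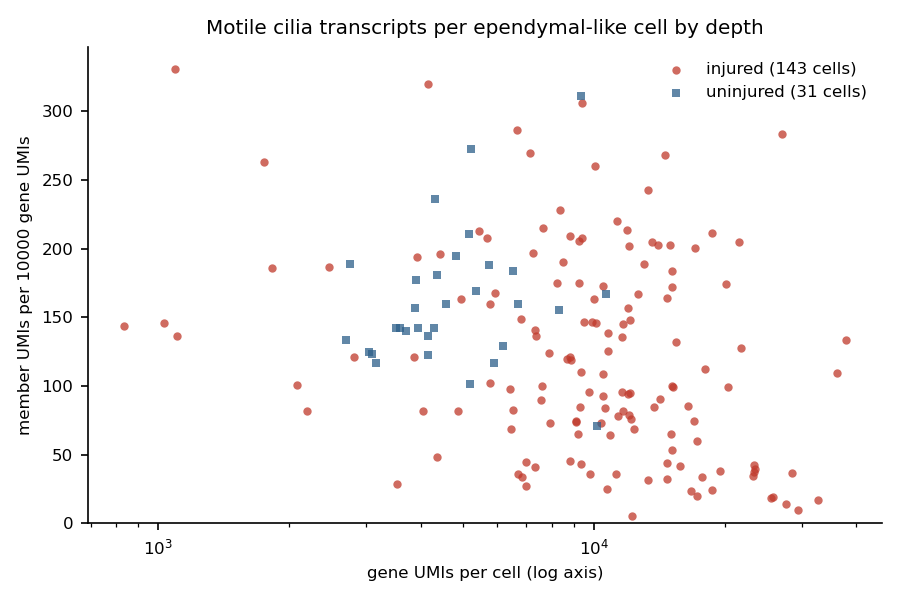
Each point is 1 ependymal-like cell, with its gene UMIs on the x axis (log axis) and its member UMIs per 10000 gene UMIs on the y axis, for 143 injured (circles) and 31 uninjured (squares) cells. The uninjured cells lie at 70.9 or above, whereas 39 injured cells lie below that value, many of them at high depth.

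Of the 6 measured regulators of the cilia programme, 4 had a log2 ratio above 0 and 2 below, with a median of 0.17. Foxj1 had 294 CPM after injury and 278 CPM without it, a ratio of 1.06 (0.776 to 1.47), though it was also used to name the class. Rfx3, a transcription factor of ciliary genes, had 749 and 625 CPM (1.2, 0.976 to 1.49) and Rfx2 128 and 101 CPM (1.26, 0.761 to 2.25). Rfx4 had 457 and 347 CPM (1.32, 1.002 to 1.77), and Myb had 78 and 8 UMIs (0.913, 0.441 to 2.19). Trp73, which acts upstream in multiciliated cells, had only 18 and 6 UMIs (0.281, 0.107 to 0.865). Of the 62 measured other motile cilia genes, 58 were below 0, with a median log2 ratio of -0.53, and 5 were at least 2-fold lower, beside 54.1% below 0 and 9.57% at least 2-fold lower of all genes. Among them Dnali1, an inner arm light intermediate chain, had 142 and 252 CPM (0.562, 0.401 to 0.806), Spag16, of the central apparatus, 633 and 1186 CPM (0.534, 0.457 to 0.626) and Ak7, an axonemal adenylate kinase, 438 and 732 CPM (0.598, 0.491 to 0.734). Of the 8 measured genes of the ependymal injury list, 4 were at least 2-fold higher and 2 at least 2-fold lower, with Vim at 6964 and 1931 CPM, 3.61-fold higher (3.22 to 4.05), and Gfap at 785 and 0 CPM, but the immediate-early genes Atf3 and Egr1 at 0.235 (0.187 to 0.297) and 0.378 (0.298 to 0.484) of the uninjured level.

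In astrocyte-like cells the members' summed level was 1.16-fold the uninjured one after injury (1.08 to 1.24), opposite in direction to the ependymal-like cells. The direction was lost without the 7 members known in cells without motile cilia. Those 7 had 261 and 145 CPM (1.8, 1.63 to 1.98), while the other 58 had 221 and 271 CPM (0.816, 0.739 to 0.899). The summed ratio of the 65 genes also turned to 0.952 (0.794 to 1.13) once each cell was thinned to 1000 UMIs. Only 27 members had at least 20 UMIs. Of these 3 were at least 2-fold higher (Cfap126, Cfap36 and Cfap54), where 12.9% of all genes were, and 2 at least 2-fold lower (Cfap46 and Dnah14), where 8.38% were. Cfap126 and Cfap54 had 16 and 9 UMIs in injured and 24 and 13 UMIs in uninjured astrocyte-like cells, small against their 443 and 1095 UMIs in injured ependymal-like cells of the same library. The ependymal markers had 545 CPM in astrocyte-like cells after injury and 111 CPM without it, 7 of 8 detected in each, with Tmem212 at 0 in the injured and Prom1 at 0 in the uninjured library, and their part in these levels was not tested. Of the 562 and 1584 UMIs of the 7 members, Cfap36 alone carried 334 and 653. Of its 334 injured UMIs, 318 lay in the cluster led by Gfap and Lcn2. As for Dnah7b, these condition ratios set different mixes of clusters against each other.

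Because the members were read together in 1 class, the 250 bases before their starts were searched, on both strands, for motifs of factors known to act at ciliary genes. RefSeq starts (GRCm38.p6) were at hand for 52 of the 65 genes. They can differ from the GENCODE starts used for the gene coordinates above. The RFX half-site GTTGCC was found before 15 of the 52 genes (28.8%), against 11.8% of 27025 genes. The 15 include the close copies Dnah7a, Dnah7b and Dnah7c, whose windows are much alike, so their matches are not separate ones. The longer form GTTGCCATG, which contains the half-site, was found before 3 (5.77% against 0.733%), and the forkhead core TGTTTAC before 3 (5.77% against 3.54%). Cfap161, a microtubule inner protein with 88.6 and 183 CPM in ependymal-like cells and 0 and 5 UMIs in astrocyte-like cells, had 3 half-sites, whose first bases lay at positions -66, -59 and -39 from its start. Cfap44 had half-sites at -129, outside the bases shown, and -19, and Drc1 at -11. A letter match is a description of the sequence and not a bound site. The 120 bases before the start are shown for these 3 genes, as examples with half-sites, and for Dnah14 and Cfap36, as examples of members with levels in astrocyte-like cells, in whose 250 bases the half-site letters did not occur. All are written 5′ to 3′ on the gene's strand, in lower case with the half-site or its reverse complement in capitals.
Cfap161, chr7:83794840-83794959, reverse strand: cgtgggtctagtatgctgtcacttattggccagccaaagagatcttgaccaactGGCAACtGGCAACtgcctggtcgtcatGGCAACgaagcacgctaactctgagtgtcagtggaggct
Cfap44, chr16:44394679-44394798, forward strand: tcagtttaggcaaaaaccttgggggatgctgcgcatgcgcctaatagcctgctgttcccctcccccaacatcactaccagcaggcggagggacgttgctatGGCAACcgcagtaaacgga
Drc1, chr5:30281273-30281392, forward strand: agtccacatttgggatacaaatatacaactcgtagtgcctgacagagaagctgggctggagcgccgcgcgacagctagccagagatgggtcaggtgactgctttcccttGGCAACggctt
Dnah14, chr1:181576473-181576592, forward strand: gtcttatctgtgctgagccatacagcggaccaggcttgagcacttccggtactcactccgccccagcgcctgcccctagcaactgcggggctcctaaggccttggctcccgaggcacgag
Cfap36, chr11:29247273-29247392, reverse strand: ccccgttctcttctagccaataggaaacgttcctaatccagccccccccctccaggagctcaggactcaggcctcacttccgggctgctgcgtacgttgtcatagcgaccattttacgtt

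Some single genes are given as examples of the upstream match beside the class pattern. They were picked after their values were seen, and the relation over all genes with a start was not tested. Only exact letters were searched, so variant forms of the motif were not counted. Dnah7a and Dnah7b each had 1 half-site in their 250 bases, at -200 and -163, and their astrocyte-like levels in the uninjured library were 0.64 and 110 CPM. The Dnah7b window, chr1:46066603-46066852, lies inside the gene by its GENCODE coordinates, so the annotations place its start differently. Cfap20 and Cfap298, read in many classes, had the half-site, and Dnah12 and Dnah5, read almost only in ependymal-like cells among these 2 classes, did not.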

How the data were processed

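The deposited matrices hold raw UMI counts per feature and cell barcode, made by the authors with Cell Ranger on mm10 (version 7.1.0 per the file headers, 8.0.1 per the submitters' notes). Whether intronic reads were counted is not stated by the sources at hand. The enhancer barcode libraries were not used.

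Barcodes between 500 and 50000 gene UMIs, both exclusive, were kept, log-normalised to 10000 and clustered with scanpy 1.11.5 (2000 variable genes without cilia genes, 15 principal components, 15 neighbours, Leiden resolution 0.5). A cluster took the class with the highest mean marker level (over 0.2, at least 3 markers in 10% of cells, no other class leading its top 10 genes), a rule set after opening the matrices. Scrublet called 2 and 0 cells, so doublets were not removed.

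UMIs were summed per class and library. Levels are CPM, with exact Poisson intervals, exact conditional binomial intervals for ratios, and Clopper-Pearson intervals for shares. Folds over all genes used CPM plus 1. A 0 was bounded at 3 UMIs. Depth was 8499672 and 15543460 gene UMIs in injured and uninjured cells. Only the ratio and its interval were tested on simulated data, namely UMI sums with known ratios and no spread between cells.

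The members, lists and tests were chosen with earlier results of these data known. Named genes were the 3 with the most ependymal-like UMIs per role, the 5 highest and lowest class ratios after injury and condition ratios in ependymal-like cells, the 3 highest astrocyte-like levels per library and the members known in cells without motile cilia. Others were named after their values were seen.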

Additional observations from a re-analysis of the deposited data

Results flagged for a closer look

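The summed level of the 65 genes was lower after injury in ependymal-like cells, at 10943 CPM against 16441 CPM (ratio 0.666), and higher in astrocyte-like cells, at 482 CPM against 416 CPM (ratio 1.16). It is given here because the ratios of the injured over the uninjured library in the 2 classes pointed in opposite directions. The astrocyte-like ratio was 0.816 (0.739 to 0.899) without the 7 members known in cells without motile cilia and 0.952 (0.794 to 1.13) after thinning to 1000 UMIs per cell, so the opposition was lost under both. The difference was not tested, since each condition had 1 library.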

How the results depend on the processing

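No paired analysis was possible because only 1 gene expression library stood for a condition, so leaving out a replicate was not possible either. The ratio of the members between ependymal-like and astrocyte-like cells ran from 20.6 to 46.6 in the injured and from 35.6 to 57.4 in the uninjured library over all alternatives. It was 20.6 and 35.6 without Cfap299, the member with the most UMIs, 46.6 and 57.4 without the members known in cells without motile cilia, and 29.6 in the injured library after thinning to 1000 UMIs. Thinning also lowered the members at least 4-fold higher to 30 and 20. In ependymal-like cells the injured level stayed below the uninjured one under every alternative run, with 0.633 when no filter on UMIs was applied, 0.715 after thinning, 0.705 as a median over cells and 0.805 within the uninjured depth range, the last 2 chosen after seeing the data. The members at least 2-fold lower there numbered 6 with 10 CPM added, 4 after thinning, 0 within that depth range and 16 when no filter on UMIs was applied, against 11. In astrocyte-like cells the ratio reversed to 0.816 without the members known in cells without motile cilia and to 0.952 (0.794 to 1.13) after thinning. The members at least 2-fold higher numbered 1 with 10 CPM added, 10 with no filter on low counts, 0 after thinning and 6 with the unnamed clusters counted in, also chosen after seeing the data, and those at least 2-fold lower 1 with 10 CPM added and 1 with the unnamed clusters. After thinning the log2 ratio of Cfap46 was 0.18 and that of Cfap54 -1.03, on the other side of 0. The share of astrocyte-like cells with a member UMI at 1000 UMIs was 5.46% and 7.19% when 2 UMIs were required, 17% and 23.7% without the members known in cells without motile cilia, and 73.3% and 69.5% not thinned, where injured ependymal-like cells reached 100%. Thinning took the members per ependymal-like cell to 9 and 12. The cause of these changes was not tested beyond the settings themselves. Apart from the depth range, shares over all genes are not given for these altered settings, so their counts are a description only. Clustering with all genes, a Leiden resolution of 1.0, a minimum of 1000 UMIs, leaving out the highest Scrublet scores and male cells alone turned no direction and moved no count by over 1.5 times. The counts rest on 2606 member UMIs in the 31 uninjured ependymal-like and 1038 in the injured astrocyte-like cells, and 1 library per condition leaves the spread between animals unmeasured.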
